A study of Mus musculus with 8 samples.

Results

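Genes for the lipid carriers of cerebrospinal fluid and for 2 of their endocytic receptors were followed in the embryonic choroid plexus of the mouse. The 8 genes were Apod, Ptgds, Apoe, Clu, Apoc1, Apob, Lrp1 and Lrp2, chosen by name with earlier results of these data known. The array carried 17 probe sets whose annotation gave 1 of them as the single gene. Controls left out, there were 45037 probe sets in all and 18193 named genes. Tissue of the fourth ventricle was taken at embryonic day 13 from 4 samples labelled Otx2 k.o., of an Otx2 deficient strain, and 4 labelled wildtype from the same litters. All were of mixed background, untreated and of undetermined sex, and each sample was a separate biological replicate per the labels, which do not give the number of embryos in a sample. The labels used here do not say how or in which cells Otx2 was removed. Otx2 is a homeodomain protein that directs development of the forebrain, midbrain and choroid plexus, and the question was how its loss changes this tissue.

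The choroid plexus is a secretory epithelium over a vascular stroma, and it makes the cerebrospinal fluid. Neurons and glia of the embryo receive cholesterol, fatty acids and fat-soluble signals through this fluid on small particles built on apolipoproteins E and J, and in the pockets of lipocalins, barrel-shaped proteins that hold a single small hydrophobic molecule. Cells take such cargo up through large receptors of the low density lipoprotein (LDL) receptor family, which bind ligands at the surface, enter in coated pits and return after unloading. Apolipoprotein B is the scaffold of the large particles made by liver, intestine and yolk sac.

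Of the 8 genes, 1 rose and 3 fell in the knockout-labelled arrays, and 4 did not pass the test. Apod rose 3.00-fold, while Ptgds fell 1.90-fold, Clu 1.81-fold and Apob 1.63-fold. Apoe, Apoc1, Lrp1 and Lrp2 differed by less than could be called. The test was limma's over all 18193 genes, each read by its brightest probe set, and a gene was called at a Benjamini-Hochberg adjusted p under 0.05. In that comparison 7.84% of all genes were called higher and 11.7% lower, 19.6% together. The median log2 fold change (knockout-labelled minus wildtype) was -0.09 over the 8 genes and 0.00 over all genes. At the level of single probe sets 10 of 17 passed, 3 higher and 7 lower. Of all probe sets 12.7% passed (5.27% higher and 7.46% lower). Clu gave 4 of the 10, and Apod and Ptgds gave 2 each. Probe sets of the same gene read the same RNA, so this count largely repeats the gene calls. The groups did not overlap for 4 of the 8 genes, beside 24.3% of all genes. Because the genes were chosen with earlier results of these data known, these shares are no test of the set.

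**Figure D1:**
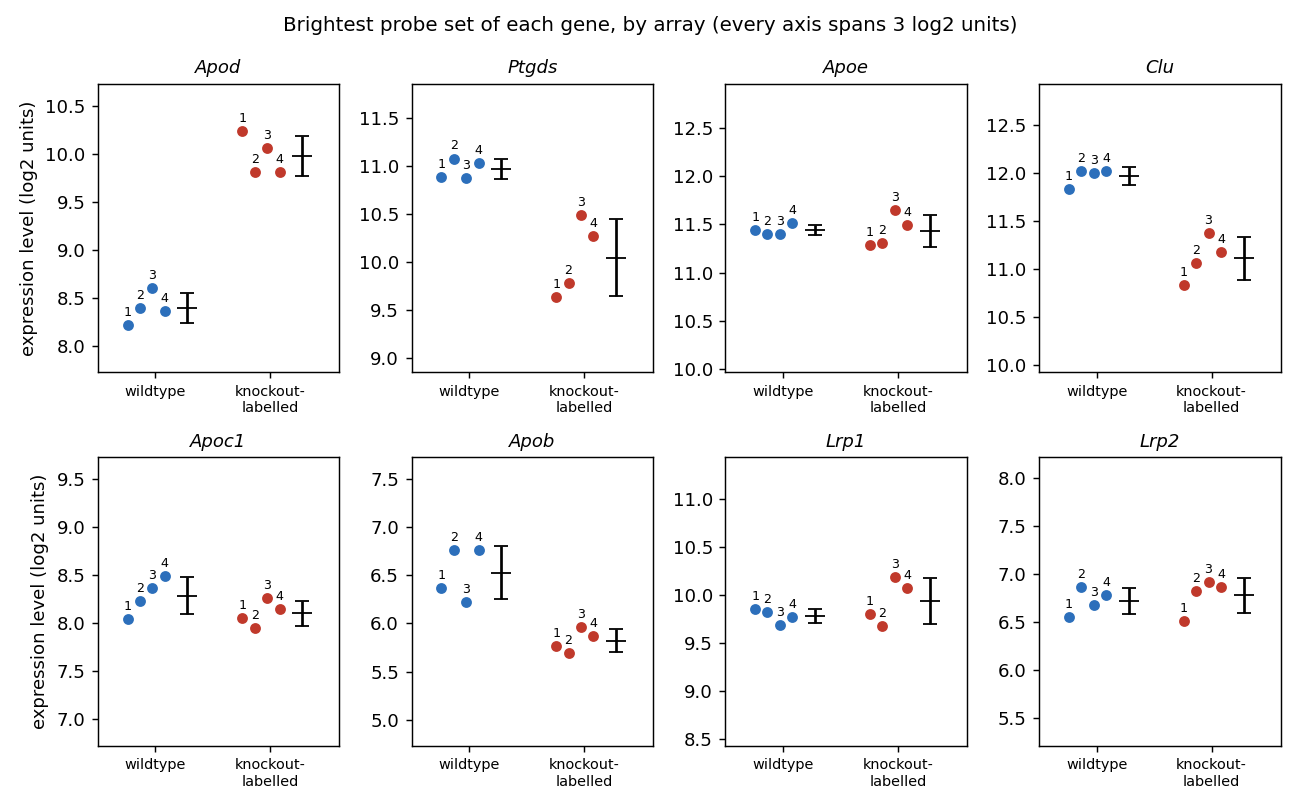
Expression level (log2 units, vertical axis) of the brightest probe set of each gene in the 4 wildtype (blue) and 4 knockout-labelled (red) arrays, numbered by replicate, with the mean and SD of the group at the right of its points. All axes span the same range. The groups do not overlap for Apod, Ptgds, Clu and Apob, and they overlap for Apoe, Apoc1, Lrp1 and Lrp2.

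The groups as a whole bear on each of these values. Array medians lay between 5.85 and 5.90 log2 units. The only probe set of Otx2 read higher in the knockout-labelled arrays (log2 fold change 0.47, limma adjusted p = 0.000648). Where the deletion lies with respect to those probes is not stated in the sources used here. The value is therefore no check of the labels, on which each direction rests. Among 14 measured markers of choroid plexus epithelium 13 were called lower and 0 higher (limma, 13 at an unadjusted p under 0.05), and the mean level of the list was 9.85 to 10.15 log2 units in the knockout-labelled arrays against 10.95 to 11.15 in the wildtype arrays. Ttr, the defining marker of that epithelium, stood at 14.17 and 14.21 log2 units, near the top of the scale, and was not called. Stromal fibroblast markers were higher in 11 of 11 genes (list means 10.75 to 11.11 against 10.17 to 10.27), macrophage markers in 10 of 15 (9.03 to 9.53 against 8.53 to 8.75) and markers of the leptomeninges, the membranes around the brain, in 6 of 8 (9.09 to 9.79 against 8.77 to 9.002). Markers of mural cells were called in 3 of 6 (1 higher and 2 lower) and of endothelium in 4 of 10 (1 higher and 3 lower). Of erythroid markers 1 of 8 was called, lower, and of neural progenitor markers 1 of 9, higher. No neuron marker of 12 and no liver or visceral endoderm marker of 9 was called (limma, 1 and 0 at an unadjusted p under 0.05), although neuron list means ran from 7.43 to 9.33 over all arrays. In such a mixed tissue, fewer cells of a type and less RNA per cell cannot be told apart, and the part of cell makeup in the results below was not tested.

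**Figure D2:**
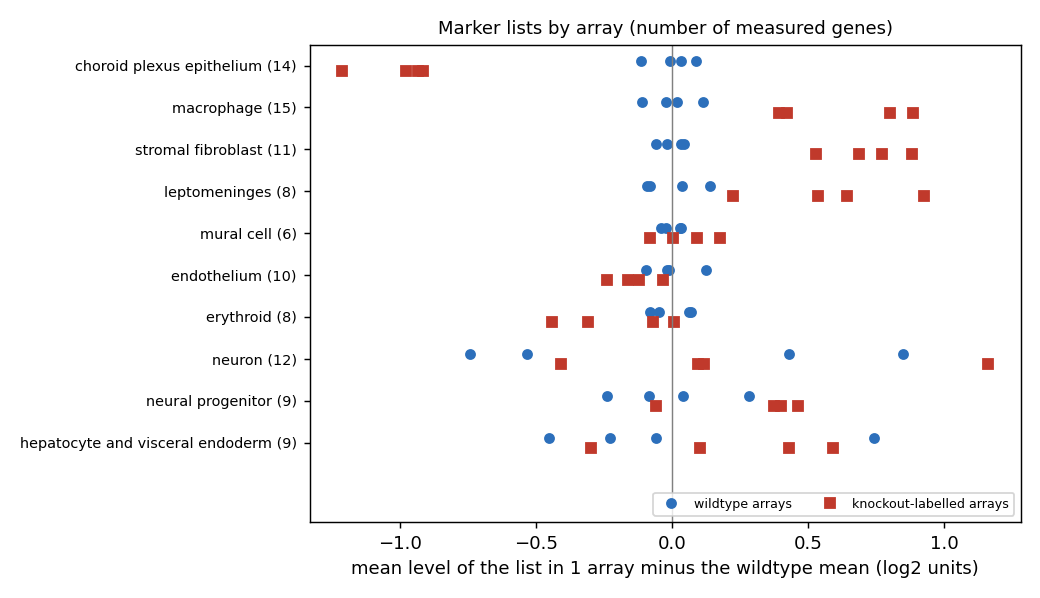
Mean level of each marker list in each array, less the wildtype mean (log2 units, horizontal axis), with the number of measured genes in brackets. Blue circles are wildtype arrays and red squares are knockout-labelled arrays. Knockout-labelled arrays lie apart from all wildtype arrays on the low side for epithelium and on the high side for macrophages, stromal fibroblasts and leptomeninges, and the groups overlap for the other lists.

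The 2 lipocalins moved in opposite directions. Their promoters are shown because of that contrast, together with that of Apoe, the only member promoter with a match to the motif below. The sequences are the 250 bases before the annotated start of transcription, from RefSeq on GRCm38.p6, 5′ to 3′ on the gene's strand, which is the minus strand for all 3. Capitals mark a match to TAATCC or its reverse complement GGATTA, the core bound by homeodomains of the bicoid class such as that of Otx2.
Apod, chr16:31314809-31315058: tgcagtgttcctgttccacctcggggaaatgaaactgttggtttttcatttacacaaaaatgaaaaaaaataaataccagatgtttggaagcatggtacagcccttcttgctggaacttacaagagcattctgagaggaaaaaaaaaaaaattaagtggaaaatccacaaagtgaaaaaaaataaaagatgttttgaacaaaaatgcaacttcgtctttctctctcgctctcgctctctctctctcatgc
Ptgds, chr2:25469750-25469999: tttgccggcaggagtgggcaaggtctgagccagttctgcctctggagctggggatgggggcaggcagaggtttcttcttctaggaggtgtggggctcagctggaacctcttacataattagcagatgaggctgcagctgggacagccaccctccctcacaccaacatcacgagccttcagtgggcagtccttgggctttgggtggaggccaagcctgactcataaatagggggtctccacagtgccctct
Apoe, chr7:19699189-19699438: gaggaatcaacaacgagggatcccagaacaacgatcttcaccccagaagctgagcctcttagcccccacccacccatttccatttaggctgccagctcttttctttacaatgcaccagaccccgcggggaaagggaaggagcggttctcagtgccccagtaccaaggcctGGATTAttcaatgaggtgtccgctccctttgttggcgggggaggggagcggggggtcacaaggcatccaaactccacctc

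The motif was looked for on both strands of the window from 250 bases before to 50 after each start. Of the 6 members with a promoter in the table, Apoe held it, in 1 of its 3 annotated promoters, as GGATTA with its first base 80 bases before the start. Of all 27025 genes with a promoter of this length, 8.14% held it in at least 1 promoter. Counted by promoter, 7.06% of all 32851 held it, beside 1 of 8 for the members. The windows of Apod, Ptgds, Apob, Lrp1 and Lrp2 did not contain these letters. Clu and Apoc1 had no entry.

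Apod encodes apolipoprotein D, a lipocalin that is a component of high density lipoproteins and binds arachidonic acid and steroids. Its brightest probe set read 10.24, 9.80, 10.06 and 9.81 log2 units in knockout-labelled replicates 1 to 4 and 8.22, 8.39, 8.60 and 8.37 in the wildtype replicates. Every knockout-labelled array lay above every wildtype array by more than the range within either group. Apod rose by 1.58 on the log2 scale (SE 0.11), with a 95% interval of 1.33 to 1.84 (limma, adjusted p = 2.42e-05). Of all 18193 genes, 0.368% changed more in either direction. The second, dimmer probe set read 6.41 to 6.63 in the knockout-labelled arrays and 5.04 to 5.62 in the wildtype arrays. It rose by 1.22 (probe set fit with limma, adjusted p = 0.000139). Both probe sets of Apod therefore gave the same direction with no overlap of the groups.

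Ptgds encodes the lipocalin-type prostaglandin D synthase, also known as beta-trace, an abundant protein of the fluid that makes prostaglandin D2 and carries lipophilic molecules such as retinoids. Its brightest probe set read 9.63, 9.78, 10.48 and 10.27 log2 units in knockout-labelled replicates 1 to 4, against 10.88, 11.08, 10.87 and 11.03 in the wildtype replicates. The groups did not overlap, but the knockout-labelled spread (SD 0.40) was wider than that of the wildtype arrays (SD 0.10), with replicates 1 and 2 below replicates 3 and 4. The fall came to -0.92 on the log2 scale (SE 0.17), with an interval of -1.31 to -0.54 (limma, adjusted p = 0.00455). The second probe set of Ptgds repeated the order of the knockout-labelled arrays, at 8.58, 8.62, 9.62 and 9.44 against 9.98 to 10.21, and fell by 1.06 (probe set fit with limma, adjusted p = 0.0115). In knockout-labelled replicates 1 to 4 the macrophage list mean was 9.06, 9.03, 9.53 and 9.44, and the leptomeninges list mean was 9.40, 9.09, 9.79 and 9.51, both highest in replicates 3 and 4. The epithelium list mean was 9.85, 10.13, 10.15 and 10.09, and the neuron list mean was 8.29, 9.33, 7.76 and 8.26. The stromal fibroblast list mean was 10.997, 10.75, 11.11 and 10.91, with replicate 1 above replicate 4. The erythroid list mean was 8.61, 8.69, 8.37 and 8.24. The liver and visceral endoderm list mean was 5.23, 5.39, 4.905 and 4.50. Both were lowest in replicates 3 and 4. Of the marker lists, only those of macrophages and leptomeninges had both replicates 3 and 4 above replicates 1 and 2. The part of any of these in the spread of Ptgds was not tested.

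Clu encodes clusterin, or apolipoprotein J, an extracellular chaperone that is carried with apolipoprotein E on the lipoprotein particles of the fluid. It read 10.83, 11.06, 11.37 and 11.17 log2 units in the knockout-labelled arrays and 11.83, 12.02, 11.998 and 12.02 in the wildtype arrays. The highest knockout-labelled array lay below the lowest wildtype array. The log2 fold change of the brightest of its 4 probe sets was -0.86 with an interval of -1.10 to -0.61 (limma, adjusted p = 0.000503). All 4 probe sets of Clu fell, by log2 values from -0.97 to -0.79, each with no overlap of the groups. By their suffixes, 3 of them (x) may cross-hybridise with other sequences and the fourth (a) matches several transcripts of a gene. All 4 read the same RNA, so they are no independent replicates.

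Apoe encodes apolipoprotein E, the main lipid-binding protein of brain particles and a ligand of Lrp1 and Lrp2. It read 11.28, 11.31, 11.65 and 11.49 log2 units in the knockout-labelled arrays and 11.45, 11.40, 11.40 and 11.51 in the wildtype arrays. The wildtype values lay inside the range of the knockout-labelled ones. The log2 fold change was -0.01 with an interval of -0.20 to 0.19 (limma, adjusted p = 0.966). An interval of this width leaves room for a change of up to that size in either direction. Macrophages are a known source of Apoe. Their marker list was higher in the knockout-labelled arrays, as were those of stromal fibroblasts and leptomeninges, while that of epithelium was lower. The part of any of these cells in the Apoe values was not tested.

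Apoc1 encodes apolipoprotein C1, a small exchangeable apolipoprotein that inhibits lipoprotein lipase and uptake through the receptors. The gene is the direct neighbour of Apoe, with 0 genes annotated between them. It read 8.05, 7.95, 8.26 and 8.15 log2 units in the knockout-labelled arrays and 8.04, 8.23, 8.36 and 8.49 in the wildtype arrays. The values overlapped, with a log2 fold change of -0.18 and an interval of -0.42 to 0.06 (limma, adjusted p = 0.292). Neither gene of the pair passed the test.

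Apob was dim. Its brighter probe set read 5.76, 5.69, 5.96 and 5.87 log2 units in the knockout-labelled arrays and 6.37, 6.76, 6.22 and 6.76 in the wildtype arrays, where the median of all probe sets was 5.88. The groups did not overlap. The fall came to -0.71 on the log2 scale (SE 0.13), with an interval of -0.999 to -0.42 (limma, adjusted p = 0.00424). With the mean of both probe sets Apob fell by 0.41 (adjusted p = 0.00568). The other probe set of Apob, at 5.18 and 5.30 on average, changed by -0.12 and did not pass (probe set fit with limma, adjusted p = 0.708). Liver and visceral endoderm, where Apob is best known, had 3 of 9 markers below 4.34, the lower quartile over all probe sets, namely the fibrinogen chains Fga, Fgb and Fgg. The markers Afp, Alb, Hnf4a, Tat, Ahsg and F2 lay above it. Afp, the fetal serum protein, averaged 7.11 in the knockout-labelled and 5.55 in the wildtype arrays, with single arrays from 3.55 to 9.13. In the same order Alb averaged 6.70 and 6.504, Hnf4a 6.09 and 5.93 and Tat 4.85 and 4.80. Fga averaged 3.09 and 3.06 and Fgb 4.05 and 3.91. Lower in the knockout-labelled arrays were Ahsg (4.54 and 4.65), F2 (4.40 and 4.52) and Fgg (4.25 and 4.30). The list means overlapped between the groups (4.50 to 5.39 against 4.35 to 5.54), and the part of such cells in the Apob values was not tested.

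Lrp1 encodes the large endocytic receptor for apolipoprotein E, protease complexes and many other ligands. Its brightest probe set read 9.80, 9.67, 10.19 and 10.07 log2 units in knockout-labelled replicates 1 to 4 and 9.86, 9.82, 9.69 and 9.77 in the wildtype replicates. Replicates 3 and 4 of the knockout-labelled group lay above all wildtype arrays and replicate 2 lay below them all. The log2 fold change was 0.15 with an interval of -0.10 to 0.40 (limma, adjusted p = 0.416). A much dimmer probe set of Lrp1, with group means of 5.66 and 4.98, gave 0.68 and passed (probe set fit with limma, adjusted p = 0.0286). Its groups overlapped, since knockout-labelled replicate 2 read 5.09 and wildtype replicate 1 read 5.19. The call on that probe set held in 2 of the 8 fits without 1 array, those without knockout-labelled replicate 2 and without wildtype replicate 1. It was lost in the 6 other such fits, which lacked 1 of the other arrays of either group, knockout-labelled replicates 1, 3 and 4 and wildtype replicates 2, 3 and 4 (adjusted p up to 0.0877).

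Lrp2 encodes megalin, the receptor at the apical face of absorptive and neural epithelia that takes up clusterin, apolipoproteins, retinol and vitamin carriers and sonic hedgehog. Its brightest probe set read 6.51, 6.83, 6.92 and 6.86 log2 units in the knockout-labelled arrays and 6.55, 6.87, 6.67 and 6.78 in the wildtype arrays. The wildtype values lay inside the knockout-labelled range, with a log2 fold change of 0.06 and an interval of -0.17 to 0.29 (limma, adjusted p = 0.762). The other 2 probe sets of Lrp2 were dimmer. The one read at 5.47 and 5.84 on average gave -0.37 with no overlap of the groups (probe set fit with limma, adjusted p = 0.1003), and the other gave 0.04. The -0.37 passed without knockout-labelled replicate 2 (-0.45, adjusted p = 0.0388), and it did not pass in the other 7 fits without 1 array. Read by the mean of its probe sets, Lrp2 gave -0.09 and was not called. By its suffix (s), the brightest probe set may be shared with other transcripts. Without such shared probe sets Lrp2 gave -0.37 and was not called (limma, adjusted p = 0.0824).

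**Figure D3:**
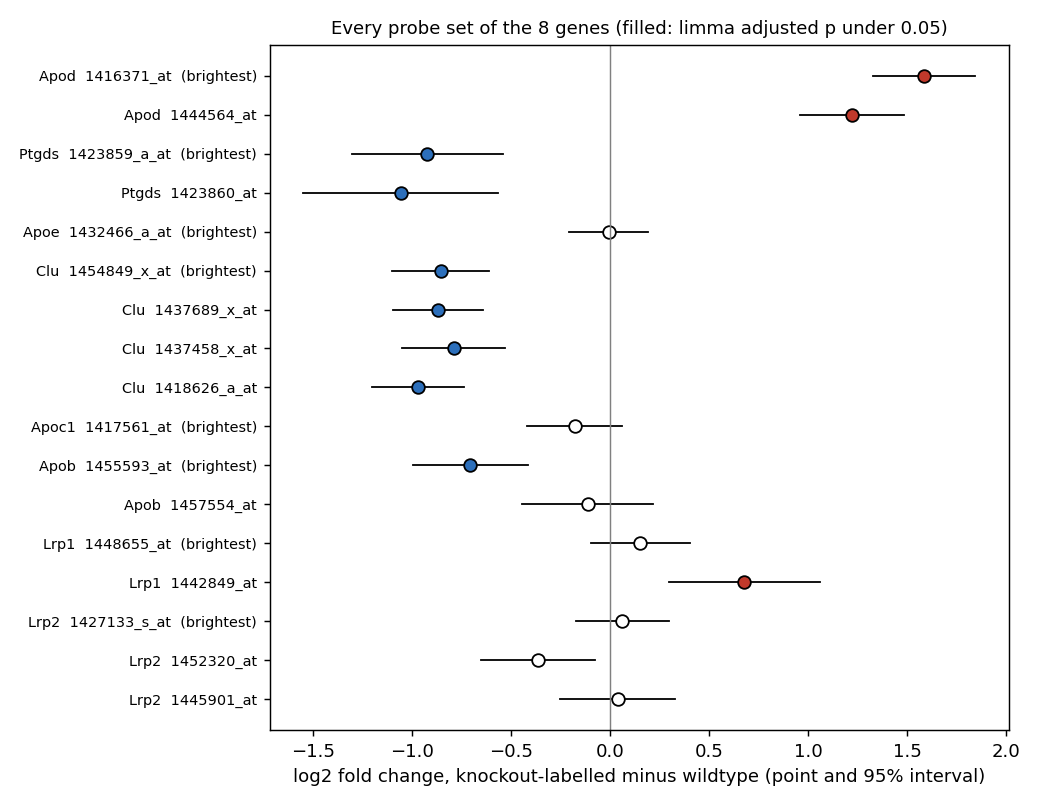
Log2 fold change, knockout-labelled minus wildtype, of all 17 probe sets with its 95% interval from the limma fit over all probe sets. Filled points passed at an adjusted p under 0.05, red for higher and blue for lower. The probe sets of Apod, Ptgds and Clu point the same way within each gene and all passed, although the 2 of Apod differ in size. Of the 2 probe sets each of Apob and Lrp1 only 1 passed, and those of Lrp2 differ in sign and 0 passed.

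Whether probe sets of a gene changed unequally was tested within arrays, as the brightest less each other probe set, with an exact two-sided permutation test over the 70 assignments of 4 against 4 arrays. This comparison was added after the values had been seen. The fold change of the brighter Apod probe set exceeded that of the dimmer by 0.36, the difference was -0.53 for Lrp1 and 0.43 for Lrp2 against its probe set at -0.37. Each of these had an exact permutation p = 0.0286, the smallest the design gives, and an adjusted p of 0.0857 over the 9 comparisons. None passed after adjustment, but with only these at the smallest p, their adjusted p could not have been lower. The test therefore does not decide whether these probe sets changed unequally. For Apob the difference was -0.59 (exact p = 0.0857, adjusted p = 0.154). The 3 Clu comparisons differed by -0.06 to 0.11 and the Ptgds pair by 0.13, with exact p from 0.0571 to 0.886.

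Within the knockout-labelled group the members shared an order. Replicate 3 read highest for 7 of the 8 genes, all but Apod, for which replicate 1 read highest. Over all genes replicate 3 was the highest of its group in 27.5%. Replicates 1 and 2 read lowest for 4 members each, where they were lowest in 25.5% and 32.6% of all genes. In the wildtype group the highest reading fell on replicates 2 and 4 for 3 members each and on replicates 1 and 3 for 1 each.

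The genes whose levels followed each called member most closely over the 8 arrays were taken from those brighter than the median gene. These correlations are descriptions, and because the arrays form 2 groups, they mostly restate the group difference. Apod was followed by Mfap2, a microfibril protein of the matrix (Pearson r = 0.993), and Col3a1, a fibrillar collagen chain that is also in the fibroblast list (r = 0.992). Ptgds was followed by Adssl1 (r = 0.997), an enzyme of purine nucleotide metabolism, and Galk2 (r = 0.989), a sugar kinase. Clu was followed by Slc39a12, a zinc transporter, and Ociad2 (r = 0.996 for both), and Apob by Me2, the mitochondrial malic enzyme (r = 0.971), and N4bp3 (r = 0.970). Between 386 and 1081 genes had r over 0.9 with a given member. For the 8 genes named here, the r of the deviations from the group means was 0.786 to 0.986. Because these genes were picked by their r over the same arrays, high values here follow in part from that choice.

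Other genes of lipid carriage were read from 8 lists with 94 measured genes. Of these, 11 rose, 7 fell and 76 did not pass, 18 of 94 called beside the 19.6% of all genes, with a median log2 fold change of -0.01. Leaving out wildtype replicate 2 or 3 gave 7 that rose, and leaving out wildtype replicate 4 gave 6. With the replicate number as a block 14 rose and 9 fell. By list, the block gave 4 chaperones and adaptors that rose in place of 2, and 2 each of the LDL receptor family and of lipid loading that fell in place of 1. A share near that of all genes is no result about the lists as a whole, so single genes are described.

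Among 13 other members of the LDL receptor family 3 rose and 1 fell, with a median of 0.02. Vldlr, a receptor for triglyceride-rich particles, apolipoprotein E and reelin, gave the largest change in these lists. It read 8.27, 8.61, 8.52 and 8.57 log2 units in the knockout-labelled arrays and 9.63, 9.67, 9.69 and 9.73 in the wildtype arrays, with a gap between the groups wider than either range. The fall came to -1.19 on the log2 scale (SE 0.08; limma, adjusted p = 1.84e-05). All 6 probe sets of Vldlr fell, by log2 values from -1.42 to -1.17. Lrp4, a receptor of the neuromuscular junction and a modulator of Wnt and BMP signals, rose by 0.47 (adjusted p = 0.00557). Ldlrad3 rose by 0.32 (adjusted p = 0.0256), a call lost without wildtype replicate 2, 3 or 4 (adjusted p up to 0.0756). Lrp1b, a close relative of Lrp1, rose by 1.02 (adjusted p = 0.0140) at a low level, 4.86 against 3.84 log2 units, and its other 2 probe sets gave 0.28 and -0.02. The number of these receptors that rose was 5 without knockout-labelled replicate 2 and 2 without wildtype replicate 2, 3 or 4.

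Among 9 chaperones, adaptors and regulators of these receptors 2 rose and 1 fell, with a median of 0.04. Lrpap1, the receptor-associated chaperone that keeps ligands off Lrp1 and Lrp2 in the secretory pathway, fell by 0.40 (limma, adjusted p = 0.0140), and 3 of its 4 probe sets passed. Dab2, the adaptor that couples megalin and LDL receptors to coated pits and is also made by macrophages, read 11.02, 10.65, 11.24 and 10.99 log2 units in the knockout-labelled arrays and 10.19, 10.14, 10.08 and 10.12 in the wildtype arrays. It rose by 0.84 with no overlap (adjusted p = 0.000630), and 3 of its 4 probe sets passed. Dab1, the adaptor of reelin signalling behind Vldlr, rose by 0.74 (adjusted p = 0.000471), with 4 of 5 probe sets past the threshold. Without knockout-labelled replicate 2 the number that rose was 4.

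Among 7 scavenger and sorting receptors 2 rose and 1 fell, with a median of 0.00. Stab1, a scavenger receptor of macrophages and sinusoidal endothelium, rose by 0.81 (limma, adjusted p = 0.00157). Trem2, a lipid-sensing receptor of macrophages, rose by 0.47 (adjusted p = 0.0363). That call held without knockout-labelled replicate 1 or 2 and was lost in the other 6 fits without 1 array, each without 1 of the other arrays (adjusted p up to 0.1003), and a dimmer probe set of Trem2 gave -0.13. Scarb1, the receptor that takes cholesterol esters from high density lipoprotein, fell by 0.30 (adjusted p = 0.00625), and all 3 of its probe sets fell, by log2 values from -0.48 to -0.30. The count of scavenger receptors that rose was then 1 without any of those 6 arrays.

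Among 14 genes of lipid loading, efflux and hydrolysis 1 rose and 1 fell, with a median of -0.04. Lipa, the lysosomal acid lipase that frees cholesterol from particles taken up, read 9.47 to 9.75 log2 units in the knockout-labelled arrays and 10.29 to 10.44 in the wildtype arrays. It fell by 0.76 (limma, adjusted p = 0.000107), and all 3 probe sets fell. Abca1, the transporter that loads cholesterol onto apolipoproteins E and A1, rose by 0.33 (adjusted p = 0.0265). With 1 array left out, the call on Abca1 held if that was wildtype replicate 1 or knockout-labelled replicate 2, and it was lost for each of the other 6 arrays (adjusted p up to 0.0802), and its 2 dimmer probe sets gave 0.24 and 0.03. The number that fell in this list was 2 without knockout-labelled replicate 1 and 3 without knockout-labelled replicate 3.

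Among 10 further genes of the prostaglandin D2 pathway 1 rose and 1 fell, with a median of -0.13. Hpgds, the other prostaglandin D synthase, found in blood-derived cells such as macrophages and mast cells, read 6.62, 6.53, 6.78 and 6.72 log2 units in the knockout-labelled arrays and 6.36, 6.07, 6.07 and 6.09 in the wildtype arrays. It rose by 0.52 with no overlap (limma, adjusted p = 0.00257), while Ptgds fell. Hpgd, the enzyme that inactivates prostaglandins by oxidation, fell by 0.75 (adjusted p = 0.000621), and its other probe set fell by 0.83. The number that fell was 2 without knockout-labelled replicate 2 or 3.

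Of 12 other apolipoproteins 2 fell and 0 rose (limma, 2 at an unadjusted p under 0.05), with a median of -0.01. They were Apoo, by 0.60 (adjusted p = 0.000127), and Apool, by 0.26 (adjusted p = 0.0159), which despite their names are known as parts of the cristae-organising complex of mitochondria. The Apool call was lost without wildtype replicate 4 (adjusted p = 0.0519), leaving 1, and its dimmer probe sets gave 0.24 and 0.26. Of 10 other lipocalins 0 passed (limma, 0 also at an unadjusted p under 0.05), 3 lay below that quartile, and the smallest p was that of Lcn3 (-0.12, adjusted p = 0.567). Of 19 genes of cholesterol synthesis and its SREBP control 2 rose and 0 fell, with a median of 0.05. Dhcr7, the last enzyme of the Kandutsch-Russell branch, rose by 0.40 (adjusted p = 0.0168, and 0.0523 without wildtype replicate 4). Mvk, mevalonate kinase, rose by 0.22 (adjusted p = 0.0425), a call that held without knockout-labelled replicate 4 and was lost without any other single array (adjusted p up to 0.116). In the fit over probe sets the same Mvk probe set did not pass (limma, adjusted p = 0.0690), and the other gave 0.02. Leaving out wildtype replicate 4 left 0 of this list called. Leaving out any other wildtype array, or knockout-labelled replicate 1 or 2, left 1.

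**Figure D4:**
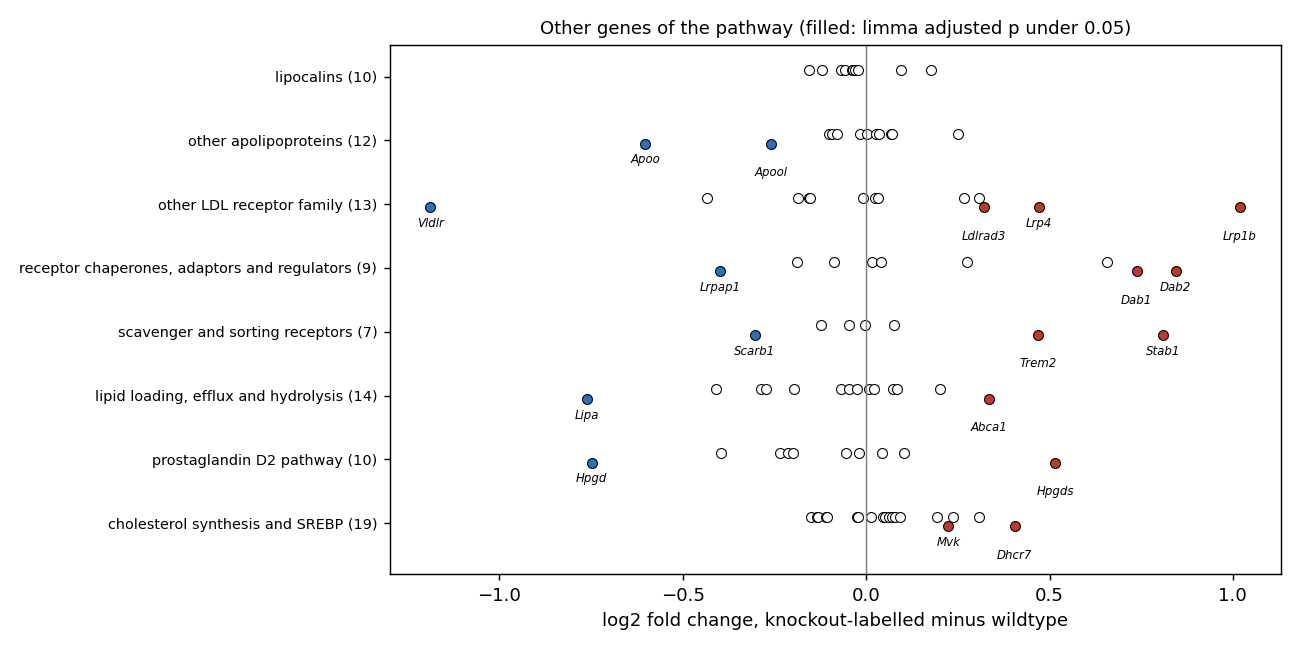
Log2 fold change, knockout-labelled minus wildtype, of each measured gene of the 8 lists (number of genes in brackets), read by the brightest probe set. Filled points passed limma's test at an adjusted p under 0.05, red for higher and blue for lower, and are named. Vldlr, Lipa and Hpgd are the lowest called genes, and Lrp1b, Dab2 and Stab1 the highest.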

How the data were processed

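Total RNA of 8 choroid plexus samples was amplified, labelled with biotin and hybridised, per the labels' protocols. Each deposited value is the log2 level of a probe set. The submitters' processing notes name RMA as the method of the authors, and no software version is stated in the sources used here. RMA equalises array distributions and compresses the brightest and dimmest differences. Depth does not apply, and the number of arrays limits the precision.

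Of 45101 probe sets, 64 controls were left out. The platform annotation gave 1 gene for 34945, several for 932 and none listed for 9160. Symbols, compared by gene identifier with the GRCm38.p6 gene table, where 34741 matched, needed 0 updates. No array build was named, so no probe coordinates are given. Each gene was read by the probe set with the highest average across the 8 arrays. Linear models with genotype alone and two-sided moderated tests were fitted over genes and over probe sets (limma 3.58.1, R 4.3.3), and every adjusted p without another name comes from it. The procedure was tested on simulated data.

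The members and lists were chosen with earlier results of these data known. Of 210 list entries, 196 were measured (94 of 105 for the pathway lists and 102 of 105 for markers), and the others are not analysed here. Genes named outside the members were up to 4 called genes per pathway list with the smallest p, the one with the smallest p where none was called, Otx2, and the 2 most correlated genes, while marker genes named beside a list were chosen after their values were seen.

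Same-numbered arrays deviated together from their group means (correlations across genes of 0.131, 0.232, 0.160 and 0.223, each over the limit of 0.1). Of the 12 differently numbered pairs, knockout-labelled replicate 3 with wildtype replicate 4 (0.294, the highest of all pairs) and knockout-labelled replicate 4 with wildtype replicate 1 (0.171) were also over it, so the values do not tie arrays by number alone. The main fits and the permutation test did not pair the arrays, and blocking on the replicate number was 1 alternative. Others were median centring, quantile normalization, a filter on dim genes, 2 other thresholds, 3 other choices of probe set, a robust variance prior with a trend, weighted arrays and leaving out each array.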

Additional observations from a re-analysis of the deposited data

Results flagged for a closer look

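In 3 of 74 groups of 4 values checked, 1 array stood far from the others by Dixon's criterion, which chance passes in about 1 of 20 groups. For the brightest Clu probe set, wildtype replicate 1 read 11.83 log2 units against 11.998 to 12.02 in the other wildtype arrays. Ldlrad3 read 9.49 in knockout-labelled replicate 1 against 9.18 to 9.21 in the others of its group. Hpgds read 6.36 in wildtype replicate 1 against 6.07 to 6.09 in the others.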

How the results depend on the processing

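The calls on Apod, Ptgds, Clu and Apob held their direction and their side of the threshold under the replicate block, array weights, a trended robust prior, median centring, quantile normalization, the mean of probe sets, the most variable probe set and an adjusted p under 0.01. The size of Apob fell to -0.41 with the mean of probe sets. The 4 calls also held in the 8 fits without 1 array, where the log2 fold change was 1.497 to 1.65 for Apod, -1.07 to -0.79 for Ptgds, -0.94 to -0.76 for Clu and -0.81 to -0.63 for Apob. With the replicate block, 3653 genes were called and Apob, the weakest of the 4, had adjusted p = 0.0136 (limma), so the pairing changed no member call, while the pathway lists gave 14 higher and 9 lower genes. If a log2 fold change of at least 1 was also asked for, 327 genes, 1 member gene (Apod) and 3 member probe sets passed, Ptgds (-0.92), Clu (-0.86) and Apob (-0.71) did not, and the pathway lists kept 1 higher and 1 lower gene. At an adjusted p under 0.01, 1950 genes and 5 higher pathway genes passed. With the most variable probe set Lrp1 passed at 0.68. Lrp2, not called in any fit over genes, turned from 0.06 to -0.37 with the most variable probe set and without shared probe sets. With the mean of probe sets Lrp2 turned to -0.09. Filtering dim genes left out Apob and Lrp2, and leaving out shared probe sets, those with the suffix x, s or a, left out Apoe and Clu. Higher pathway genes numbered 6 to 14 in the fits without 1 array. Apool turned to 0.0805 with the mean of probe sets and 0.26 with the most variable one, and Trem2 to -0.13 without shared probe sets, which exchanges the probe set read. All genes called numbered 2653 to 3934 without 1 array, and those higher fell to 905 without wildtype replicate 3. Scaling moved the median of all genes by -0.03 at most. Signal over background was not measured here, so how far it limits the dimmer probe sets of Apob, Lrp1 and Lrp2 was not tested.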
